A study of Mus musculus with 4 samples.

Results

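Splicing factor and hnRNP genes were examined as a group in sorted hair follicle stem cells of the mouse. The group holds every gene whose platform annotation gives it 1 symbol that starts with Srsf, Hnrnp, Snrp, Sf3a or Sf3b. By this rule 44 of the 12393 genes named on the array belonged to it, with 115 probe sets. They comprise 9 SR protein genes, 18 hnRNP genes, 5 genes of the Sm core, 3 genes of proteins particular to 1 snRNP, 3 SF3A genes and 6 SF3B genes. Another 14 probe sets carry several symbols, one of them from these families (Snrpn with Snurf, Snrpd1, Snrpd2, Snrpa, Hnrnpa1 and Hnrnpa3), and were left out by the rule. Genes named Snrnp also fall outside the rule.

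The cells were taken from back skin; the mice were female, of strain CD1/C57BL/6 and aged about postnatal day 60, and the cells were sorted on YFP, integrin α6 and CD34. There were 4 Affymetrix arrays in 2 groups of 2: conditional knockouts of the T-box transcription factor gene Tbx1 (Tbx1 cKO) and wild type (WT), with one array of each genotype in set 1 and one in set 2. All mice had the mid-dorsal hair removed with wax 48 h before harvest according to the treatment text, while another label calls the set 1 cells quiescent and the set 2 cells activated, so the sets are given by number here. The labels name neither the driver of the deletion nor the number of animals behind an array, so a p-value here measures the spread among these 4 arrays alone, and that spread may be technical. The main comparison of genotypes has no term for the set. Its spread within a genotype is therefore the difference between set 1 and set 2, and replicate and set cannot be told apart there.

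The spliceosome removes introns from pre-mRNA. Its small nuclear ribonucleoproteins (snRNPs) carry a ring of Sm proteins around their RNA, and the SF3A and SF3B complexes of the U2 snRNP hold the branch point of the intron. SR proteins bind exonic enhancers and help to recruit the spliceosome, whereas hnRNP proteins coat nascent transcripts and often repress nearby splice sites. Many SR and hnRNP genes limit their own output through alternative exons or introns that lead to retained or degraded transcripts, so their transcript forms can differ in the part of the gene that a probe set reads.

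Promoter sequences are shown for the 4 genes with 1 annotated window among those with the largest cKO-WT difference shared by both sets. They come from RefSeq (GRCm38.p6) and run from 150 bases before the transcript start to the start, 5′ to 3′ on the gene's strand, with the searched motifs in capitals. Srsf1 lies on chromosome 11 (chr11:88047223-88047372, plus strand), Snrpa1 on chromosome 7 (chr7:66060186-66060335, plus strand), Sf3a3 on chromosome 4 (chr4:124714711-124714860, plus strand) and Srsf10 on chromosome 4 (chr4:135855921-135856070, plus strand).
Srsf1: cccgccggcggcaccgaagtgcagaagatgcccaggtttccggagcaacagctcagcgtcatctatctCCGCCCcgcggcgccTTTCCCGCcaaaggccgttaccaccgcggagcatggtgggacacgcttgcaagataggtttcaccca
Snrpa1: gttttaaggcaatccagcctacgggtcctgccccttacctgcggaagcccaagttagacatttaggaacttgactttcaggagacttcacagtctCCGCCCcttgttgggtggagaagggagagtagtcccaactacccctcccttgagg
Sf3a3: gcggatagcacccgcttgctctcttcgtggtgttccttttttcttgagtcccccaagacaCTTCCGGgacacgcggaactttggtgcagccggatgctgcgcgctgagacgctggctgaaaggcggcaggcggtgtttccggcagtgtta
Srsf10: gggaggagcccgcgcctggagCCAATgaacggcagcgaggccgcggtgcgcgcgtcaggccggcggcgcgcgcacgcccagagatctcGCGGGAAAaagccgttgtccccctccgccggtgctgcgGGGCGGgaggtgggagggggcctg

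In these stretches the capitals mark the SP motif CCGCCC or GGGCGG in Srsf1, Snrpa1 and Srsf10, the E2F motif TTTCCCGC or its complement GCGGGAAA in Srsf1 and Srsf10, the ETS motif CTTCCGG in Sf3a3 and a CCAAT box in Srsf10. RefSeq windows of 39 of the 44 genes were used, 55 in all, and the 250 bases before each start were searched on both strands. The ETS motif CCGGAAG stood in 32.7% of the members' windows and in 6.91% of all 32851 windows, and the SP motif GGGCGG in 65.5% against 32.7%. The E2F motif TTTCCCGC stood in 7.27% against 0.895%, and CCAAT in 43.6% against 33.9%. TATAAA was found in 9.09% against 12.4%, the NRF1 motif GCATGCGC in 3.64% against 2.26%, TGACGTCA in 1.82% against 1.55% and the YY1 motif AAGATGGC in 1.82% against 1.56%. The T-box half-site AGGTGTGA was found in 0 of the 55 windows and in 1.12% of all windows. The median GC content was 60.4% in the members' windows and 52.4% in all windows. All windows include those of genes that are dim or absent here, and a gene with several windows counts more than once. The shares are therefore not shown to be particular to splicing genes. These matches describe letters only, and no binding was measured.

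The arrays had near-equal median log2 intensities of 6.36 to 6.38. Tbx1 read 9.54 and 8.88 in cKO set 1 and set 2 and 10.53 and 10.37 in WT, a difference of -1.24 (SE 0.25, limma adjusted p = 0.310 over all probe sets with 1 symbol), so both cKO arrays lay below both WT arrays. Of the markers of bulge stem cells, 12 of 12 lay above the limit for dim genes, and their summed linear intensity was 80322 to 80607 in cKO and 65586 to 67929 in WT. The markers did not share a direction: 5 were higher in cKO within both sets, 1 (Lhx2) was lower and 6 were opposite in the sets. The WT set 2 array stood apart in the nuclear RNAs Malat1, at 12.35 against 9.80 to 10.56 elsewhere, and Neat1, at 9.08 against 7.46 to 8.51. The cKO set 1 array had the widest gap between the ends of the Dap control, with a 3′ minus 5′ difference of 2.95 against 1.74 to 1.82. The same difference was also widest on this array for the cells' own Gapdh, at 0.68 against 0.24 to 0.34, and actin, at 1.68 against 1.09 to 1.18. Results are therefore also given without these arrays.

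All but 1 of the members gave clear signal. Their chosen probe set, the one with the highest mean over the arrays, had means from 8.18 to 13.40 on the log2 scale in 43 genes, above the limit for dim genes of 5.40. Snrpn was the exception, with readings of 4.98 and 4.74 in cKO, against 4.77 and 4.72 in WT (set 1 and set 2 in that order, as in all pairs below), and it was not tested. Comparisons of level between genes are not made, because probe sets differ in brightness. In sorted bulk RNA, fewer cells of a type and less RNA per cell cannot be told apart.

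The comparison of cKO with WT asks which transcripts differ in stem cells of the Tbx1 knockout, in which the Tbx1 probe set read 42.4% of WT. Splicing factor genes read lower in cKO by a small amount across nearly all their families. Of the 43 genes tested, 36 were lower in cKO within both sets, where 27.9% of all 8031 genes were, and 1 was higher within both sets, where 35.8% of all genes were. Both cKO arrays lay below both WT arrays in 31 genes, against 19.9% of all genes, and above them in 1, against 26.7%. The highest of the 4 arrays was a WT array in 42 of the 43, against 50.8% of all genes. It was the WT set 2 array in 21, against 25.2%, and the WT set 1 array in another 21. The lowest was the cKO set 2 array in 29, against 21.5%. The median difference was -0.23 on the log2 scale, -0.21 in set 1 and -0.30 in set 2, while the median over all genes was 0.03, 0.02 and 0.05. Differences ran from -0.69 for Srsf10 to 0.22 for Hnrnpul2.

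**Figure D1:**
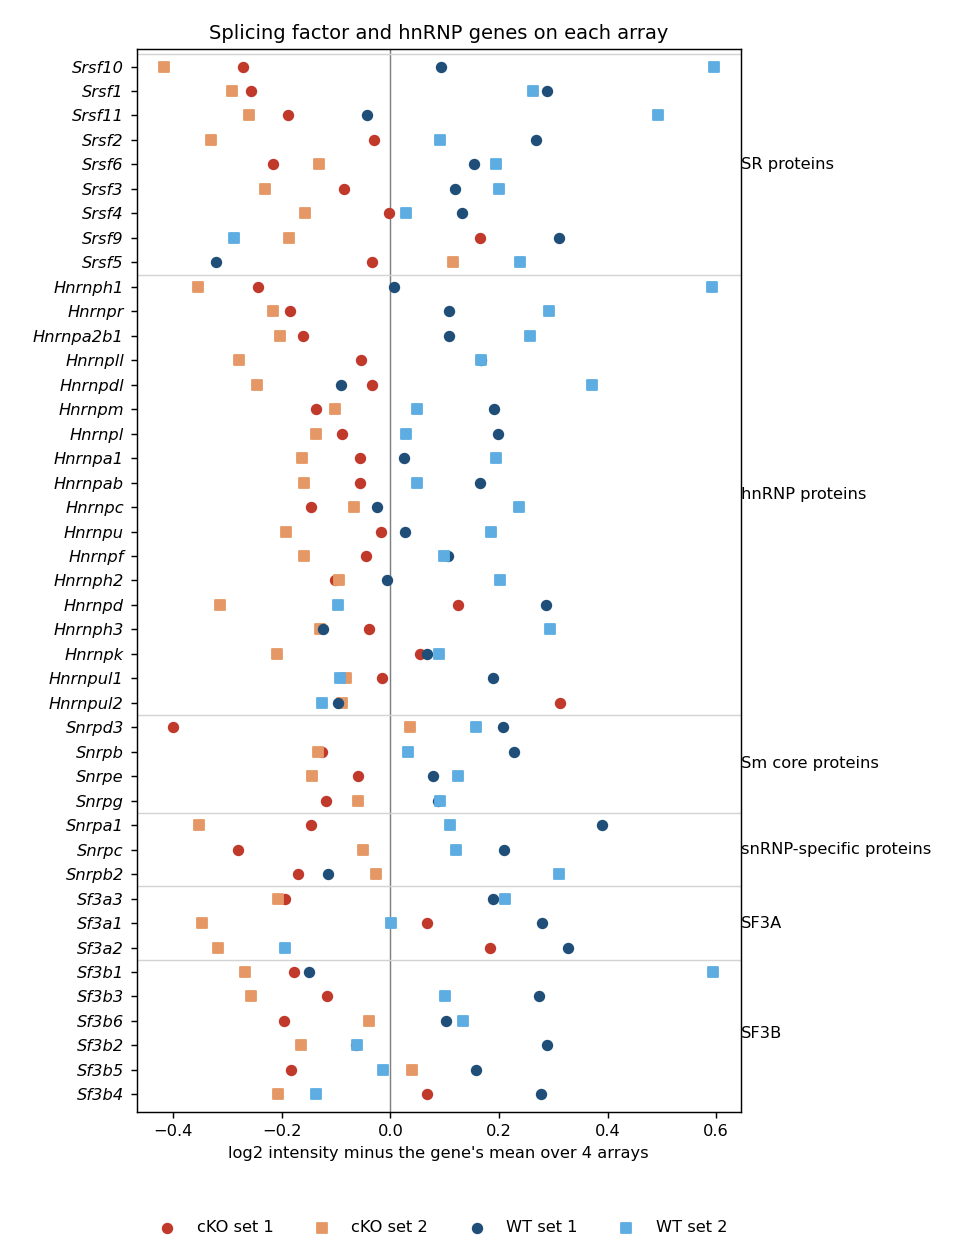
Each point is the log2 intensity of a gene on 1 array minus the mean of that gene over the 4 arrays, for the 43 genes above the limit, grouped by role and ordered by genotype difference. WT points (blue) lie to the right of cKO points (red and orange) in 31 genes, and Hnrnpul2 is the gene with both cKO points to the right.

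No single member passed limma's test over all genes. At an adjusted p under 0.05 limma called 0 of the 43 members and 0.0872% of all genes, and the members' adjusted p-values ran from 0.253 (Srsf1) to 0.981 (Srsf9). With the set as a replicate block it again called 0 members, against 1.03% of all genes. At an unadjusted limma p under 0.05, 6 members were lower in cKO (Srsf1, Srsf10, Snrpa1, Sf3a3, Hnrnph1 and Hnrnpr), against 5.79% of all genes, and 0 were higher, against 8.37%. That count of 6 depended on the arrays used, and a fit without 1 array leaves 1 array in a group. In such fits the members' median difference was -0.28 without cKO set 1 and -0.29 without WT set 1. It was -0.21 without cKO set 2 and -0.29 without WT set 2. Over all genes the median was 0.01, 0.07, 0.04 and 0.01 in that order. Counts without the arrays that stood apart order fewer arrays, so they can only stay or rise, and each is to be read against its own share of all genes. With the WT set 2 array left out, both cKO arrays lay below the WT set 1 array in 38 of 43 members, against 36.5% of all genes. With the cKO set 1 array left out, the cKO set 2 array lay below both WT arrays in 37, against 30.8%. With both left out, the cKO set 2 array lay below the WT set 1 array in 40, against 50.6%, with a median of -0.29, although these arrays also differ in set.

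**Figure D2:**
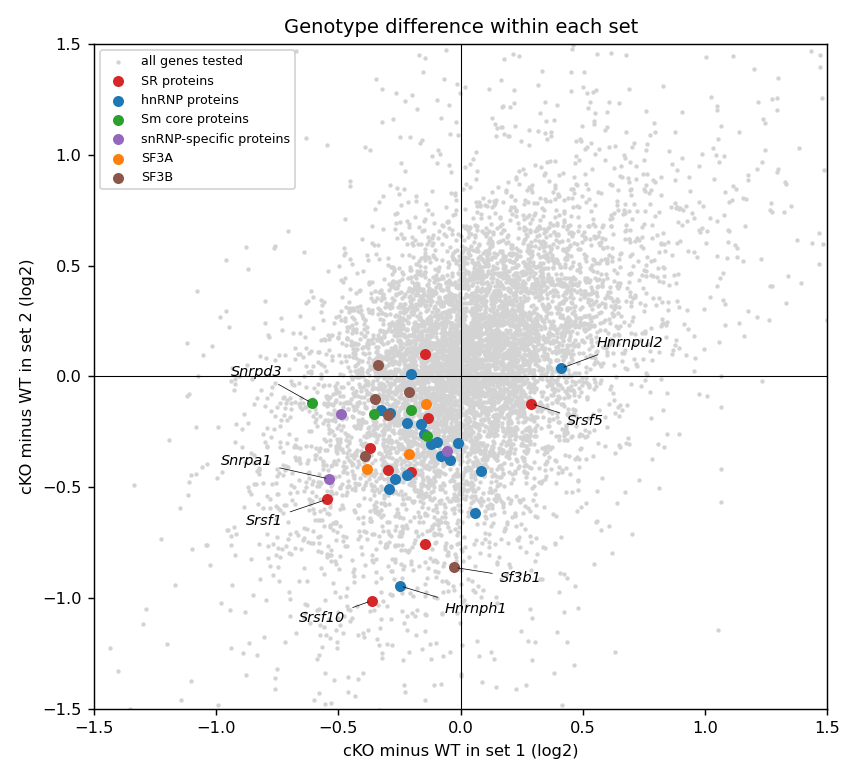
Each point is a gene, with cKO minus WT in set 1 on the horizontal axis and in set 2 on the vertical axis (log2). Grey points are all genes tested, of which 158 lie beyond the axes at 1.5, and 36 of the 43 coloured splicing genes sit in the lower left quadrant.

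Among the SR proteins, 7 of 9 genes were lower in cKO in each set, against 27.9% of all genes. The median difference of the 9 was -0.35. Srsf1, the classical enhancer-binding SR protein, read 11.73 and 11.69 in cKO, against 12.27 and 12.25 in WT. The set 2 and set 1 arrays differed by -0.03 in each genotype, and the cKO minus WT value was -0.55 in both sets. The mean difference was -0.55 (SE 0.15, 95% interval -0.93 to -0.17, limma adjusted p = 0.253), which puts cKO at 68.3% of WT. It was -0.56 without the WT set 2 array.

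Srsf10, an SR protein that acts as a repressor when dephosphorylated, read 9.63 and 9.48 in cKO, against 9.99 and 10.49 in WT. Its difference of -0.69 (SE 0.22, limma adjusted p = 0.281), or 62.1% of WT, was -0.36 in set 1 and -1.01 in set 2, and -0.44 without the WT set 2 array. Srsf11 read 10.45 and 10.38 in cKO, against 10.60 and 11.14 in WT. Its difference of -0.45 was -0.18 without the WT set 2 array, and the WT set 2 array was the highest of the 4.

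Srsf2, which also binds exonic enhancers, read 11.58 and 11.28 in cKO, against 11.88 and 11.70 in WT, a difference of -0.36. Srsf6 read 11.18 and 11.27 in cKO, against 11.55 and 11.60 in WT, a difference of -0.35 of nearly equal size in both sets. Srsf3, the smallest of the family and a factor in mRNA export as well, read 12.11 and 11.97 in cKO, against 12.32 and 12.40 in WT, a difference of -0.32. In these genes both cKO arrays lay below both WT arrays, as they did for Srsf4 (-0.16).

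The other SR genes did not share the direction. Srsf5 read 11.38 and 11.53 in cKO, against 11.10 and 11.66 in WT, so the WT arrays lay on either side of the cKO arrays and the mean difference was 0.08. Srsf9 read 10.59 and 10.24 in cKO, against 10.74 and 10.14 in WT, with overlapping groups and a mean difference of -0.02. limma's 95% interval was -0.48 to 0.64 for Srsf5 and -0.64 to 0.60 for Srsf9, so a difference like that of Srsf1 lies outside the first and inside the second.

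Of the 18 hnRNP genes, 14 were lower in cKO within both sets, against 27.9% of all genes. In 13 of them both cKO arrays lay below both WT arrays, against 19.9% of all genes. The median difference of the 18 was -0.21. Hnrnph1, whose protein binds runs of G, read 11.03 and 10.92 in cKO, against 11.28 and 11.86 in WT. Its difference was -0.60 (SE 0.23, limma adjusted p = 0.335). Leaving out WT set 2, the highest array for this gene, made it -0.30. Hnrnpr read 10.84 and 10.80 in cKO, against 11.13 and 11.31 in WT, a difference of -0.40 (SE 0.16). Its set 2 array differed from set 1 by -0.03 in cKO.

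Hnrnpa2b1, which binds and packages nascent RNA with its relative Hnrnpa1, read 12.40 and 12.36 in cKO, against 12.67 and 12.82 in WT, a difference of -0.37. Hnrnpa1 read 10.51 and 10.40 in cKO, against 10.59 and 10.76 in WT, a difference of -0.22, on a probe set whose probes can also bind related sequences. Hnrnpc, a poly(U)-binding protein, read 12.74 and 12.82 in cKO, against 12.86 and 13.12 in WT, a difference of -0.21. All 3 had both cKO arrays below both WT arrays. For Hnrnpa2b1 the SD was 0.03 in cKO and 0.11 in WT, and for Hnrnpc it was 0.06 and 0.19 (n = 2 each), so the Hnrnpc difference was close to the spread within WT. Hnrnpll, a regulator of exon skipping in lymphocytes, differed by -0.33, Hnrnpm by -0.24, Hnrnpl by -0.23, Hnrnpu by -0.21 and Hnrnpf by -0.20, again with no overlap between groups. Hnrnpab, an AU-rich RNA binding protein, read 13.00 and 12.90 in cKO, against 13.22 and 13.11 in WT, a difference of -0.22. Hnrnph2, a close relative of Hnrnph1, read 10.77 and 10.77 in cKO, against 10.86 and 11.07 in WT, a difference of -0.20. In both, cKO lay below WT throughout. Hnrnpk, a poly(C)-binding protein, differed by -0.16, of which -0.01 in set 1.

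In the 4 remaining genes with negative means the groups overlapped. Hnrnpd, the AU-rich element binding protein AUF1, read 11.56 and 11.12 in cKO, against 11.72 and 11.34 in WT, lower in cKO within each set. Hnrnpdl read 12.34 and 12.12 in cKO, against 12.28 and 12.74 in WT, and Hnrnph3 read 8.14 and 8.05 in cKO, against 8.06 and 8.48 in WT, both with a positive difference in set 1 (0.06 and 0.08) and a negative one in set 2 (-0.62 and -0.43). Hnrnpul1 differed by -0.20 in set 1 and 0.01 in set 2. Hnrnpul2, a DNA damage-related relative of Hnrnpu, was the gene with the opposite order, at 9.76 and 9.36 in cKO, against 9.35 and 9.32 in WT. Its mean difference of 0.22 (SE 0.19) came mostly from the cKO set 1 array and was 0.02 without it.

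The snRNP genes were lower in cKO throughout. All 4 tested Sm genes and all 3 genes of snRNP-specific proteins were lower in each set, against 27.9% of all genes. The medians were -0.23 and -0.33. Snrpa1, a protein of the U2 snRNP, read 9.98 and 9.78 in cKO, against 10.52 and 10.24 in WT, a difference of -0.50 (SE 0.18, limma adjusted p = 0.324) and 70.7% of WT. It was -0.54 in set 1, -0.46 in set 2 and -0.64 without the WT set 2 array. Snrpc, a U1 snRNP protein that helps to recognise the 5′ splice site, read 10.15 and 10.38 in cKO, against 10.64 and 10.55 in WT, a difference of -0.33. Snrpb2, another U2 snRNP protein, read 10.73 and 10.88 in cKO, against 10.79 and 11.21 in WT, overlapping between groups, and its difference was 0.02 without the WT set 2 array.

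Of the Sm ring, Snrpd3 read 10.94 and 11.38 in cKO, against 11.55 and 11.50 in WT. Its difference of -0.36 was -0.61 in set 1 and -0.12 in set 2, and -0.15 without the cKO set 1 array. Snrpb, which encodes SmB, read 10.71 and 10.70 in cKO, against 11.06 and 10.87 in WT. Snrpe read 13.34 and 13.26 in cKO, against 13.48 and 13.52 in WT, and Snrpg 12.88 and 12.94 in cKO, against 13.08 and 13.09 in WT. These 3 genes differed by -0.26, -0.20 and -0.18 with no overlap between groups.

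SF3A and SF3B, which bind the branch point region with U2 snRNP, followed the same direction. All 3 SF3A genes and 5 of 6 SF3B genes were lower in cKO within both sets, against 27.9% of all genes. Sf3a3 read 9.47 and 9.46 in cKO, against 9.85 and 9.88 in WT. The set 2 array differed from set 1 by -0.01 in cKO and 0.02 in WT. The genotype difference of -0.40 (SE 0.15, limma adjusted p = 0.332) was -0.38 in set 1 and -0.42 in set 2. Sf3a1 read 8.53 and 8.11 in cKO, against 8.74 and 8.46 in WT, and Sf3a2 10.44 and 9.94 in cKO, against 10.59 and 10.07 in WT. In both the difference between the sets (-0.34 and -0.51) was larger than that between genotypes (-0.28 and -0.13), so the groups overlapped.

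Sf3b3 read 9.91 and 9.77 in cKO, against 10.30 and 10.13 in WT, a difference of -0.37 that was alike in both sets. Sf3b1, the scaffold of the complex around the branch point, read 10.78 and 10.69 in cKO, against 10.81 and 11.55 in WT. Its mean difference of -0.44 was -0.03 in set 1, -0.86 in set 2 and -0.07 without the WT set 2 array, so its size rests on that array. Sf3b6, which contacts the branch point adenosine region, read 11.46 and 11.62 in cKO, against 11.76 and 11.79 in WT (-0.24), and Sf3b2 differed by -0.23, its highest cKO and lowest WT array both at 10.60. Sf3b4 read 9.91 and 9.64 in cKO, against 10.12 and 9.70 in WT, with overlap and a difference of -0.14. Sf3b5 differed by -0.34 in set 1 and 0.05 in set 2.

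Different probe sets of a gene agreed in direction more than in size. Of the 115 probe sets, 109 lay above the limit, and 87 of these were lower in cKO within both sets (79.8%), against 31.2% of all probe sets above the limit. Among the 29 genes with several such probe sets, all of them were lower within both sets in 15. In 3 genes, Hnrnpab, Sf3a2 and Sf3b4, the mean differences of the probe sets had opposite signs. Of the 7 Hnrnpab probe sets, 6 ran from -0.53 to -0.22 on average and one, 1426114_at, read 0.25. The second probe sets of Sf3a2 and Sf3b4 read 0.07 each. All 6 probe sets of Srsf1 were lower within both sets, with mean differences from -0.98 to -0.46. All 6 of Srsf3 were too, from -0.68 to -0.32, and all 3 of Snrpa1, from -0.54 to -0.43. With each probe set tested on its own, the smallest limma adjusted p among the members' probe sets was 0.299.

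**Figure D3:**
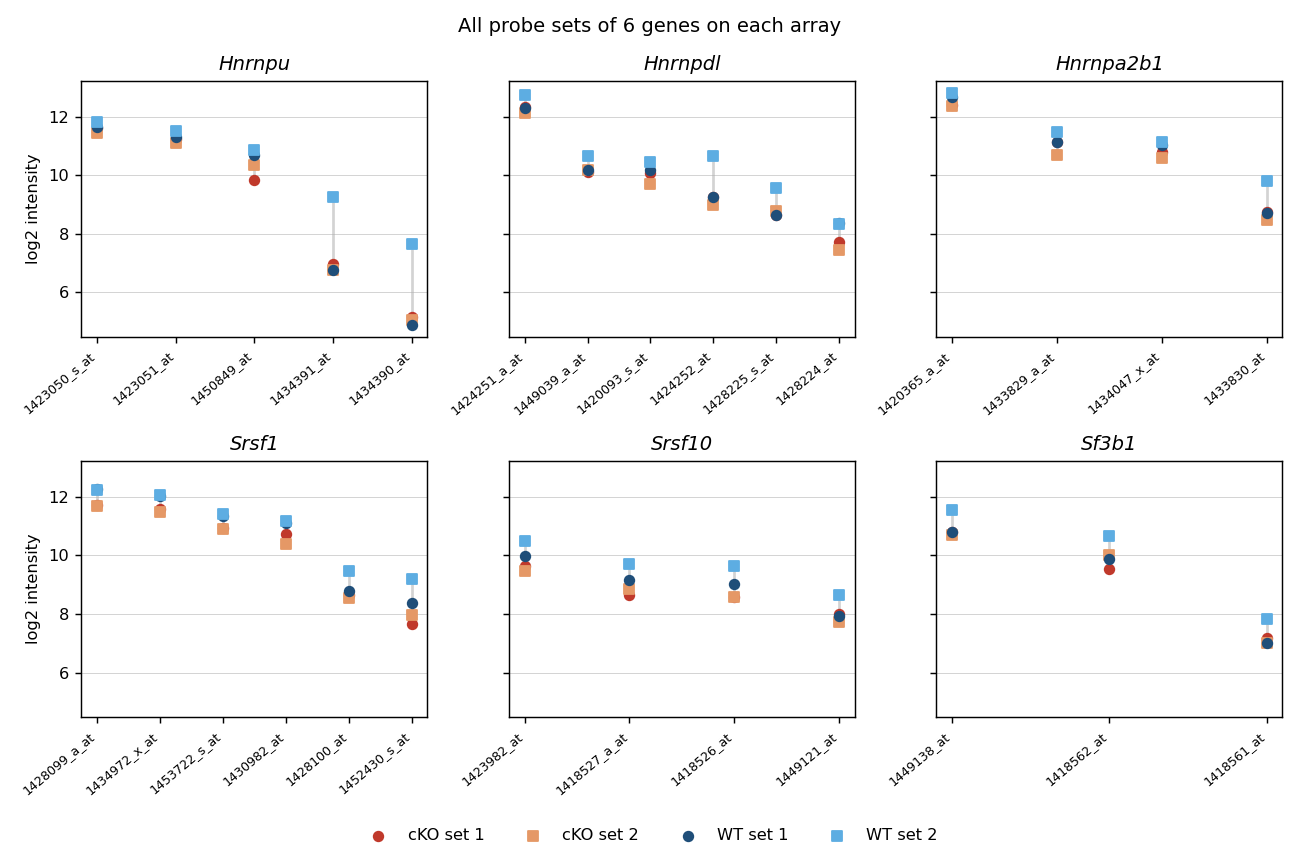
Log2 intensity of every probe set of 6 genes on each array, with a grey line from the lowest to the highest array. In Hnrnpu the bright probe sets differ little between arrays, while the 2 dimmest stand apart on the WT set 2 array; Srsf1 has both WT arrays above both cKO arrays in all 6 probe sets.

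The dimmer probe sets of several genes were highest on the WT set 2 array by a wide margin. Hnrnpu, which encodes a scaffold protein of the nuclear matrix, showed the largest such difference. Probe set 1434390_at read 5.16 and 5.05 in cKO, against 4.88 and 7.66 in WT, and 1434391_at read 6.98 and 6.76 in cKO, against 6.76 and 9.26 in WT. The readings of 1434390_at lay below the dim limit of 5.40 on every array but WT set 2. It passed the filter only through that array, so its excess there is no support. The brightest Hnrnpu probe set differed by 0.25 between the WT set 2 array and the mean of the others, against 2.63 for 1434390_at and 2.43 for 1434391_at. Hnrnpdl probe set 1424252_at read 9.24 and 8.97 in cKO, against 9.27 and 10.67 in WT, and Hnrnpa2b1 probe set 1433830_at read 8.73 and 8.46 in cKO, against 8.70 and 9.81 in WT. Srsf1 probe set 1452430_s_at (1.20 above the mean of the others on that array) and Srsf3 probe set 1438215_at (1.07) were the other ones more than 1 above. In all, 25 of the 109 probe sets (22.9%) were at least 0.5 higher on the WT set 2 array than on average elsewhere, against 11.9% of all probe sets above the limit. They were 17 of the 51 plain _at probe sets, 5 of the 27 _a_at sets, which read several transcripts of a gene, and 2 of the 17 _s_at and 1 of the 14 _x_at sets, which can bind other transcripts. This is the array with the highest Malat1 and Neat1 readings, and the part of nuclear RNA in these values was not tested.

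A few probe sets were low on the cKO set 1 array alone. Of the 109, 4 (3.67%) lay at least 0.5 below each of the other arrays there, against 2.35% of all probe sets above the limit. This rule is stricter than the one used for WT set 2. Measured against the mean of the other arrays, 13 (11.9%) lay at least 0.5 below, against 7.56%. The 4 that met the stricter rule were as follows. Hnrnpr probe set 1452030_a_at read 6.45 on that array and 7.94 to 8.36 elsewhere, Sf3a3 probe set 1432488_a_at 7.55 against 8.29 to 8.76, Hnrnpu probe set 1450849_at 9.82 against 10.35 to 10.85, and Sf3b2 probe set 1456040_at 8.12 against 8.70 to 8.76. This array had the widest 3′ to 5′ gaps, and the part of RNA quality was not tested. The brightest probe sets of Hnrnpr, Sf3a3 and Hnrnpu read 10.84, 9.47 and 11.60 there, and the cKO set 2 array differed from that by -0.03, -0.01 and -0.18.

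The second comparison, set 2 with set 1, showed no shared direction among the members. limma called 0 of 43 members and 0% of all genes at an adjusted p under 0.05, and with the genotype as a replicate block 0 members and 0.0125% of all genes. The main fit of this comparison has no term for genotype, so its spread within a set is the difference between cKO and WT. Its 0 calls therefore do not show that the sets are alike. At an unadjusted limma p under 0.05 the main fit gave 2 members (Sf3a2 and Srsf9, both lower in set 2), against 2.86% of all genes. Lower values in set 2 within both genotypes were found in 18 members, against 35.8% of all genes, and higher values in 7, against 19.8%. Both set 2 arrays lay below both set 1 arrays in 6, against 19.5%, and above them in 2, against 11.1%. Another 14 were lower in set 2 in cKO and higher in set 2 in WT, against 20.2% of all genes. The median was -0.02, -0.09 in cKO and -0.00 in WT, with -0.05 over all genes.

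**Figure D4:**
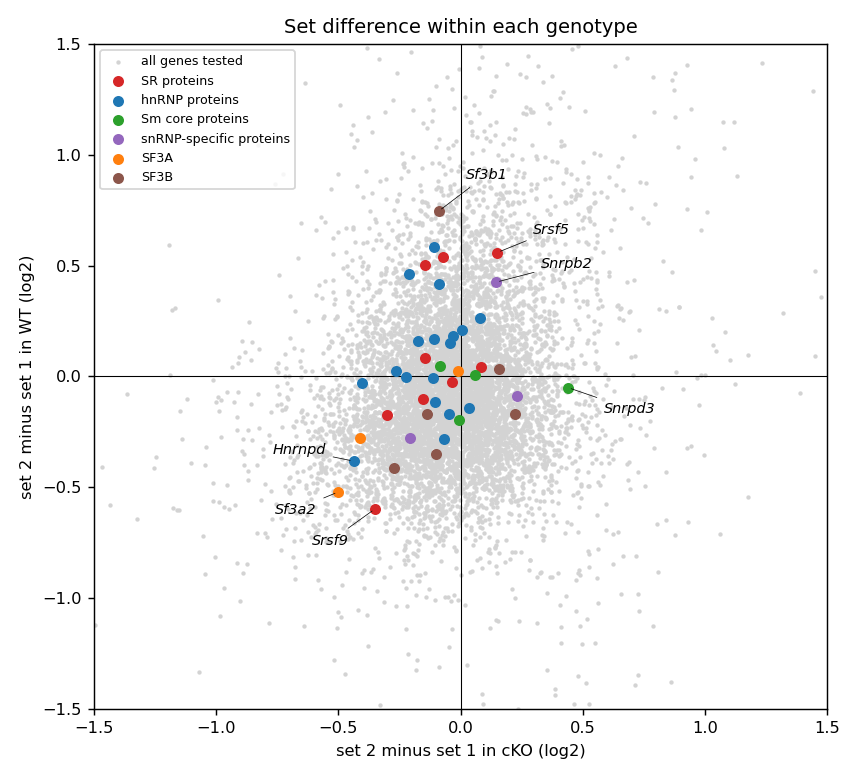
Each point is a gene, with set 2 minus set 1 in cKO on the horizontal axis and in WT on the vertical axis (log2). Grey points are all genes tested, of which 70 lie beyond the axes at 1.5. Splicing genes spread around 0, with Sf3a2, Srsf9 and Hnrnpd low in both genotypes and Sf3b1 at -0.09 in cKO and 0.75 in WT.

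The genes with separate sets were few. Sf3a2 differed by -0.51 between sets (SE 0.18), -0.50 in cKO and -0.52 in WT. Srsf9 differed by -0.47, -0.35 in cKO and -0.60 in WT. Hnrnpd differed by -0.41, Sf3a1 by -0.34, Sf3b4 by -0.34 and Hnrnpul1 by -0.17, each with both set 2 arrays lowest. Srsf5, at 11.10 to 11.38 in set 1 and 11.53 to 11.66 in set 2, and Snrpb2, at 10.73 to 10.79 and 10.88 to 11.21, had both set 2 arrays highest, with differences of 0.35 and 0.28. All of these had a limma adjusted p of 0.999. Of the genes with a large genotype difference, Srsf1 (-0.03) and Sf3a3 (0.01) hardly differed between sets, while Snrpa1 (-0.24) and Srsf2 (-0.24) were lower in set 2.

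Other genes of pre-mRNA splicing were taken from 4 lists. Splicing regulators, spliceosome proteins and snRNP assembly genes mostly read lower in cKO within both sets. Most SR protein kinases were opposite in the sets. limma called 0 genes of these lists in either comparison, and the lowest adjusted p for genotype was 0.205 (Fubp1). Of 33 splicing regulators, 20 were lower in cKO within both sets and 2 higher, against 27.9% and 35.8% of all genes. Their median was -0.27. Tia1, a U-rich element binding protein, read 8.09 and 8.42 in cKO, against 8.75 and 9.34 in WT (-0.79), and Fubp1, an RNA- and DNA-binding protein related to splicing repression, 8.60 and 8.76 in cKO, against 9.33 and 9.54 in WT (-0.76). The epithelial splicing regulator Esrp2 read 8.95 and 8.80 in cKO, against 8.77 and 8.36 in WT (0.31), and the poly(C)-binding protein gene Pcbp2 differed by 0.14.

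Of 58 spliceosome proteins outside the name rule, 35 were lower in cKO within both sets and 4 higher, against 27.9% and 35.8% of all genes. Their median was -0.19. Lsm3, of the ring on U6 snRNA, read 11.29 and 11.21 in cKO, against 11.70 and 11.79 in WT (-0.50), and the RNA helicase gene Ddx39b differed by -0.47. Dhx38 and Syf2 differed by 0.24 each. Of 12 genes of snRNP assembly, 9 were lower and 0 higher, against the same shares of all genes, with a median of -0.18. Gemin2, of the SMN complex, differed by -0.44, and the cap-binding protein gene Ncbp1 by -0.42.

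Of 7 SR protein kinases, which phosphorylate SR proteins, 2 were lower in cKO within both sets (Prpf4b at -0.76 and Srpk1 at -0.19), 0 were higher and 5 were opposite in the sets. That share is near the 27.9% of all genes. Their median of -0.07 was 0.0020 when the WT set 2 array was left out. Clk1 read 11.20 and 11.34 in cKO, against 10.78 and 11.86 in WT, opposite in the sets. Between sets, Srpk2 and Clk1 had higher readings in set 2 within both genotypes (0.54 and 0.61), as had the regulators Rbm25 (0.78) and Tia1 (0.46). Differences between these lists were not tested.

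**Figure D5:**
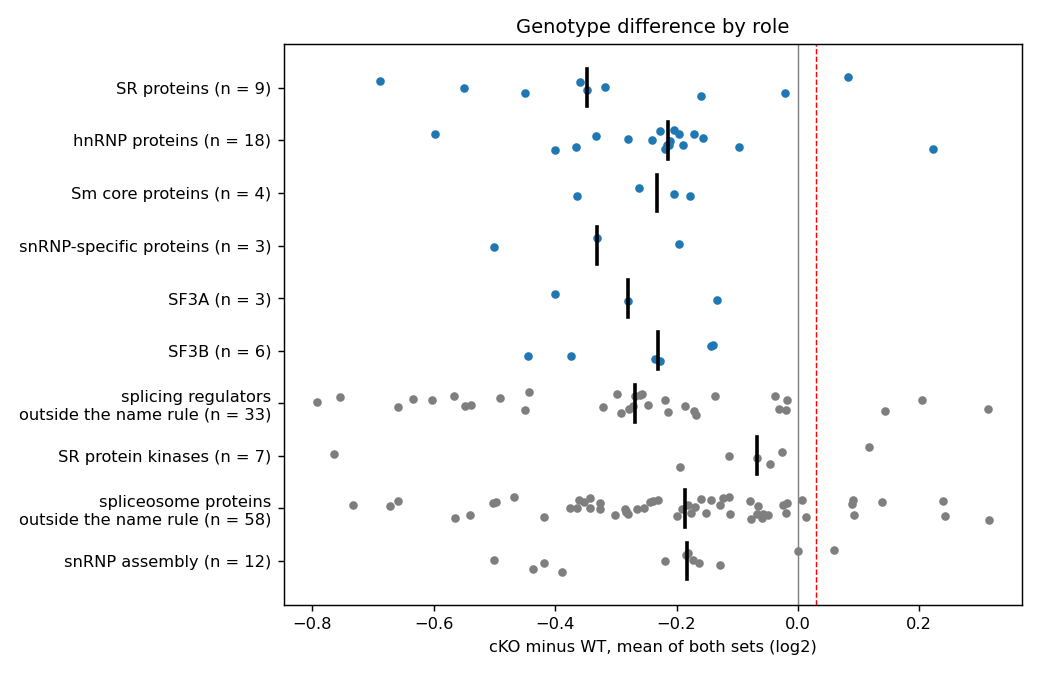
Each point is a gene's cKO minus WT difference, averaged over both sets (log2), for the 6 families (blue) and 4 further lists of splicing genes (grey). Black bars are medians, and the dashed red line is the median of all genes at 0.03; every median lies to its left, from -0.35 for SR proteins to -0.07 for SR protein kinases.

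Markers of other cell types also differed between the arrays. All 8 endothelial markers were lower in cKO within both sets, and their summed linear intensity was 117 to 124 in cKO and 700.1 to 806 in WT. On average 2 of 8 (Plvap and Selp) lay above the dim limit, and 4 of 8 lay below it on all arrays. Plvap and Selp were below the limit in cKO and passed it only through the WT arrays. Their limma calls (adjusted p of 0.00408 to 0.00652) therefore describe markers that the filter kept for being high in WT. Suprabasal keratinocyte markers summed to 22227 and 24947 in cKO and 20311 and 6931 in WT, the lowest being the WT set 2 array. Of 6 fibroblast markers 4, and of 7 immune markers 5, were below the limit on average, with sums of 271 to 298 in cKO and 299.7 to 348 in WT for fibroblasts and 223 to 252 and 182 to 232 for immune cells. Melanocyte markers summed to 368 to 378 in cKO and 257 to 346 in WT. The part of such cells in the splicing gene values was not tested.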

How the data were processed

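Total RNA was extracted with Trizol and labelled cRNA from 2 µg of it was hybridised, as the labels' protocols say. The authors deposited linear intensity values for 22690 probe sets on 4 arrays, and RMA is named in the submitters' processing notes, with version and settings not given in the sources used here. The near-equal medians and the range up to 25561 led to log2 being taken here, with no pseudocount. RMA values carry no detection call, and differences of dim genes are compressed.

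Of the probe sets, 20380 had 1 symbol in the platform annotation and 691 had several. For each gene the probe set of highest mean over the arrays was taken, genes with a mean below percentile 40 of all probe sets (log2 5.40) were left out, and Xist and Y-linked genes were not tested, which left 8031 genes. Using R 4.3.3, limma 3.58.1 was fitted to all 4 arrays by lmFit and eBayes without covariates (Benjamini-Hochberg over all genes, threshold 0.05) and compared cKO with WT and set 2 with set 1. With 2 arrays a group, an exact permutation test cannot give a p below 0.333. Within a pair there is 1 array a genotype and no test. Sample titles number the sets across genotypes, so the set served as a replicate block in an alternative (r = 0.192 across genes between deviations of same-numbered arrays). The scripts were tested on simulated data. Without the block, 0.4% of genotype changes of 0.5 and 5.3% of changes of 1 on the log2 scale were called. False calls averaged 4.64% of the calls for genotype without the block and 11.0% with it. For the set without the block they averaged 10.5%. Promoter windows are RefSeq's (GRCm38.p6). Values on all arrays are given for the 8 members per direction and comparison with the largest smaller within-pair difference, for members with the highest or lowest mean in a family and for those with opposed probe sets. Further members were described after their values were seen. The members and lists were chosen with earlier results of these data known. Alternatives were no filter, a percentile 60 filter, mean or single probe sets, quantile normalisation, median centring, a pseudocount of 16, a robust fit with a variance trend, a 0.10 threshold, the block and leaving out each array. The counts without arrays that stood apart were added after the data were seen.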

Additional observations from a re-analysis of the deposited data

Results flagged for a closer look

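Several probe sets differed by at least 0.25 on the log2 scale in opposite directions in the 2 pairs of arrays, a difference that was not tested. The cKO minus WT value of Hnrnpa1 probe set 1436549_a_at was 0.34 in set 1 and -0.49 in set 2, and that of Hnrnpu probe set 1434390_at was 0.28 and -2.61. The Hnrnpu probe set lay below the limit for dim genes on every array but WT set 2. Between sets (set 2 minus set 1), Hnrnpa1 1436549_a_at read -0.43 in cKO and 0.40 in WT, Hnrnpa2b1 1433829_a_at -0.44 and 0.33, Hnrnpa2b1 1433830_at -0.27 and 1.11, Hnrnpdl 1420093_s_at -0.39 and 0.29, Hnrnpdl 1424252_at -0.27 and 1.40, and Srsf10 1449121_at -0.27 and 0.68. None of them is the brightest probe set of its gene, and in each the WT set 2 array read highest.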

How the results depend on the processing

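limma called 0 members in either comparison under every alternative run, which at 2 arrays per group and differences of this size says nothing about stability. The members' median genotype difference stayed between -0.29 and -0.21 for all alternatives except each probe set on its own (-0.31). The count of members lower in cKO within both sets was 36 or 37 under quantile normalisation, median centring and the pseudocount of 16, and that with both cKO arrays below both WT arrays was 29 to 31. Over all genes, limma called 7 between genotypes, 0 at the percentile 60 filter, 28 with the variance trend and robust fit, 39 at a threshold of 0.10, 83 with the replicate block, and 2 to 16 with each array left out (2 when WT set 2 was left out and 16 when cKO set 2 was). Between sets it called 0, and 1 with the replicate block. The members' median set difference of -0.02 ran from -0.19 to 0.12 with each array left out. The genes named for genotype were chosen for a direction shared by both sets, so their signs are no sign of stability. Of the genes named for the set comparison, 10 recomputed values reversed. With each array left out, the set difference ran from -0.041 to 0.26 for Hnrnph2, -0.35 to 0.039 for Sf3b3, -0.054 to 0.24 for Sf3b6, -0.51 to 0.025 for Snrpa1, -0.071 to 0.13 for Snrpg and -0.12 to 0.25 for Srsf6, and it was -0.0145 for Sf3b6 with the mean of its probe sets. The cause was not tested. The 2 arrays per group limit the precision of every value.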
